A study of Mus musculus with 2 samples.

Results

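The genes described here are 9 members of a calcium signalling route, matched by symbol: the inositol trisphosphate (IP3) receptors Itpr1, Itpr2 and Itpr3, the calmodulin genes Calm2 and Calm3, and the calmodulin-dependent kinase II (CaM kinase II) genes Camk2d, Camk2b, Camk2g and Camk2a. All 9 of 9 were found, each as 1 feature, among 27999 features. They were followed across heart cell types in 2 droplet libraries of the right ventricle of C57/BL6J mouse pups that were homozygous for floxed alleles of CBP, p300 and Trap. All animals received AAV9, an adeno-associated virus, within a day of birth (postnatal day 1) to knock out p300 and CBP, the acetyltransferases Ep300 and Crebbp, and tissue was taken on postnatal day 21. Both libraries belong to the same group and no control sample was analysed here, so no value below measures an effect of the knockout. The labels name neither the promoter that drives the recombinase nor the number of pups behind a library. The p-values therefore rest only on how far differences between groups of cells vary between these 2 libraries, and on the spread shared over genes. That variation may be technical.

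IP3 is made when receptors coupled to Gq proteins switch on phospholipase C, and IP3 receptors answer it by releasing calcium from the endoplasmic or sarcoplasmic reticulum. Calcium then binds calmodulin, and calcium-loaded calmodulin switches on CaM kinase II, calcineurin and other enzymes. In ventricular muscle the beat-to-beat release runs through the ryanodine receptor, while IP3 receptors are known for slower signals near the nucleus, and CaM kinase II delta is the form best known for acting on the release machinery of the heart.

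Several of these genes are related in sequence. The coding starts below show how far they differ, not how well counts can be told apart, because most reads come from the 3' ends of transcripts. Calm2 and Calm3 have coding sequences of 450 bases that share the same base at 82.7% of positions. Their first 90 coding bases (GENCODE vM21, GRCm38) are shown because the differing bases, in capitals, fall at the last base of a codon, at 15 of the 90 positions:
Calm2: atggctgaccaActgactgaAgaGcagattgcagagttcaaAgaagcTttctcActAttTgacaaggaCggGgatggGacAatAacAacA
Calm3: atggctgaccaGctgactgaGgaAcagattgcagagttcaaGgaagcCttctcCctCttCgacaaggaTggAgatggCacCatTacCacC

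The start of the kinase genes is shown as well. Capitals mark the 25 of 90 positions at which Camk2d, Camk2g and Camk2b are not all alike:
Camk2d: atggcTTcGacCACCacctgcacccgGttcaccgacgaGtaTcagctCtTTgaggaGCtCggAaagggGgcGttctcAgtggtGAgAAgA
Camk2g: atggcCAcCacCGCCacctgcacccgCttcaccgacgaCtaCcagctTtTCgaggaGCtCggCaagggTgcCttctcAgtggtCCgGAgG
Camk2b: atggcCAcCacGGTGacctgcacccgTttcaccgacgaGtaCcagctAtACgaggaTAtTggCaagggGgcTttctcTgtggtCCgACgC

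In the same annotation Itpr1 lies at chr6:108213096-108551109 on the plus strand and Itpr2 at chr6:146108299-146502223 on the minus strand, and Itpr3 lies at chr17:27057304-27122223 on the plus strand. Calm2 lies at chr17:87433412-87446935 and Calm3 at chr7:16915379-16924114, both on the minus strand. Camk2d lies at chr3:126596302-126846326 on the plus strand, Camk2b at chr11:5969644-6066362 and Camk2g at chr14:20734875-20794088 on the minus strand, and Camk2a at chr18:60925618-60988152 on the plus strand. Itpr1, Itpr2, Itpr3 and Camk2d overlap other annotated genes on both strands, such as Itpr3os and Gm15551 opposite Itpr3 and Camk2d, Camk2a overlaps genes on its own strand, and Calm2, Calm3, Camk2b and Camk2g overlap none. No source used here gives whether reads were assigned with strand, so it is not known whether reads of the overlapping genes were kept apart from reads of the members. The 3' chemistry reads mostly the ends of transcripts, and the values below are counts of unique molecular identifiers (UMIs) over whole genes, so they do not separate splice forms.

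Library 1 held 12736 barcodes with 57982200 UMIs and library 2 held 9447 barcodes with 50199793 UMIs, and 17 barcode sequences occurred in both. Cells were grouped by marker genes into classes called "like" a cell type. The 6 classes that reached 50 cells in each library were tested, and every marker of their own lists had UMIs there. They held 7509 and 2232 cardiomyocyte-like cells in libraries 1 and 2, 1131 and 2471 fibroblast-like cells, 634 and 960 endothelial-like cells, 120 and 969 endocardial-like cells, 370 and 404 pericyte-like cells, and 242 and 355 macrophage-like cells. The fibroblast-like cells came mostly from different clusters in the 2 libraries, with 895 of 1131 in a single cluster in library 1 and 1608 of 2471 in another in library 2. The labels describe an enrichment of CD45-positive cells, a marker of blood-derived cells, yet cardiomyocyte-like cells were 63.2% of kept cells in library 1 and 26.4% in library 2. The median barcode had 0.338% and 0.229% mitochondrial counts in libraries 1 and 2, and Malat1 held 5.58% and 3.73% of all UMIs. Whether the barcodes held whole cells or nuclei was not tested, so the levels below may not stand for whole-cell RNA. Cardiomyocyte markers also had UMIs in the other classes: all 12 summed to between 14.5% and 18.6% of their cardiomyocyte-like level in the other tested classes of library 1, and to between 3.25% and 6.10% in library 2. The cardiomyocyte-like clusters themselves split by library: the main cluster of library 2 held 1988 of its 2232 cells and was led by the Y-linked genes Uty, Kdm5d, Eif2s3y and Ddx3y, and held 49 cells of library 1. Levels are given as counts scaled to a common total of UMIs per class and library (CPM).

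Against the mean of the other 5 classes, all 9 members differed in cardiomyocyte-like cells, 5 higher and 4 lower, at an adjusted p under 0.05 (edgeR quasi-likelihood test, Benjamini-Hochberg over 13248 genes). In this contrast 66.2% of all genes were called, with 32.3% of all genes higher and 33.9% lower, so the count itself sets the members little apart. The median log2 difference was 0.48 over the members and -0.06 over all genes tested. Camk2a (log2 difference 3.77), Camk2d (1.72), Camk2b (1.43) and Camk2g (1.07) were higher, and so was Itpr1 (0.48). Itpr3 (-3.64), Calm3 (-1.52), Calm2 (-0.46) and Itpr2 (-0.46) were lower. Taken alone, libraries 1 and 2 gave -0.72 and -0.16 for Itpr2, -0.60 and -0.26 for Calm2, 0.67 and 0.33 for Itpr1, -4.12 and -3.15 for Itpr3, 1.198 and 1.80 for Camk2b, and 3.16 and 4.73 for Camk2a, with the same direction in both libraries for all 9 members. These differences rest on TMM scaling, whose factors were 0.776 and 0.752 in the cardiomyocyte-like sums and between 0.995 and 1.10 in the others. With no such factor the median of all genes moved by -0.46 on the log2 scale and 28.1% of calls were higher in place of 48.8%, and with no filter on low counts the median moved by 0.20 and 61.2% of calls were higher.

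**Figure D1:**
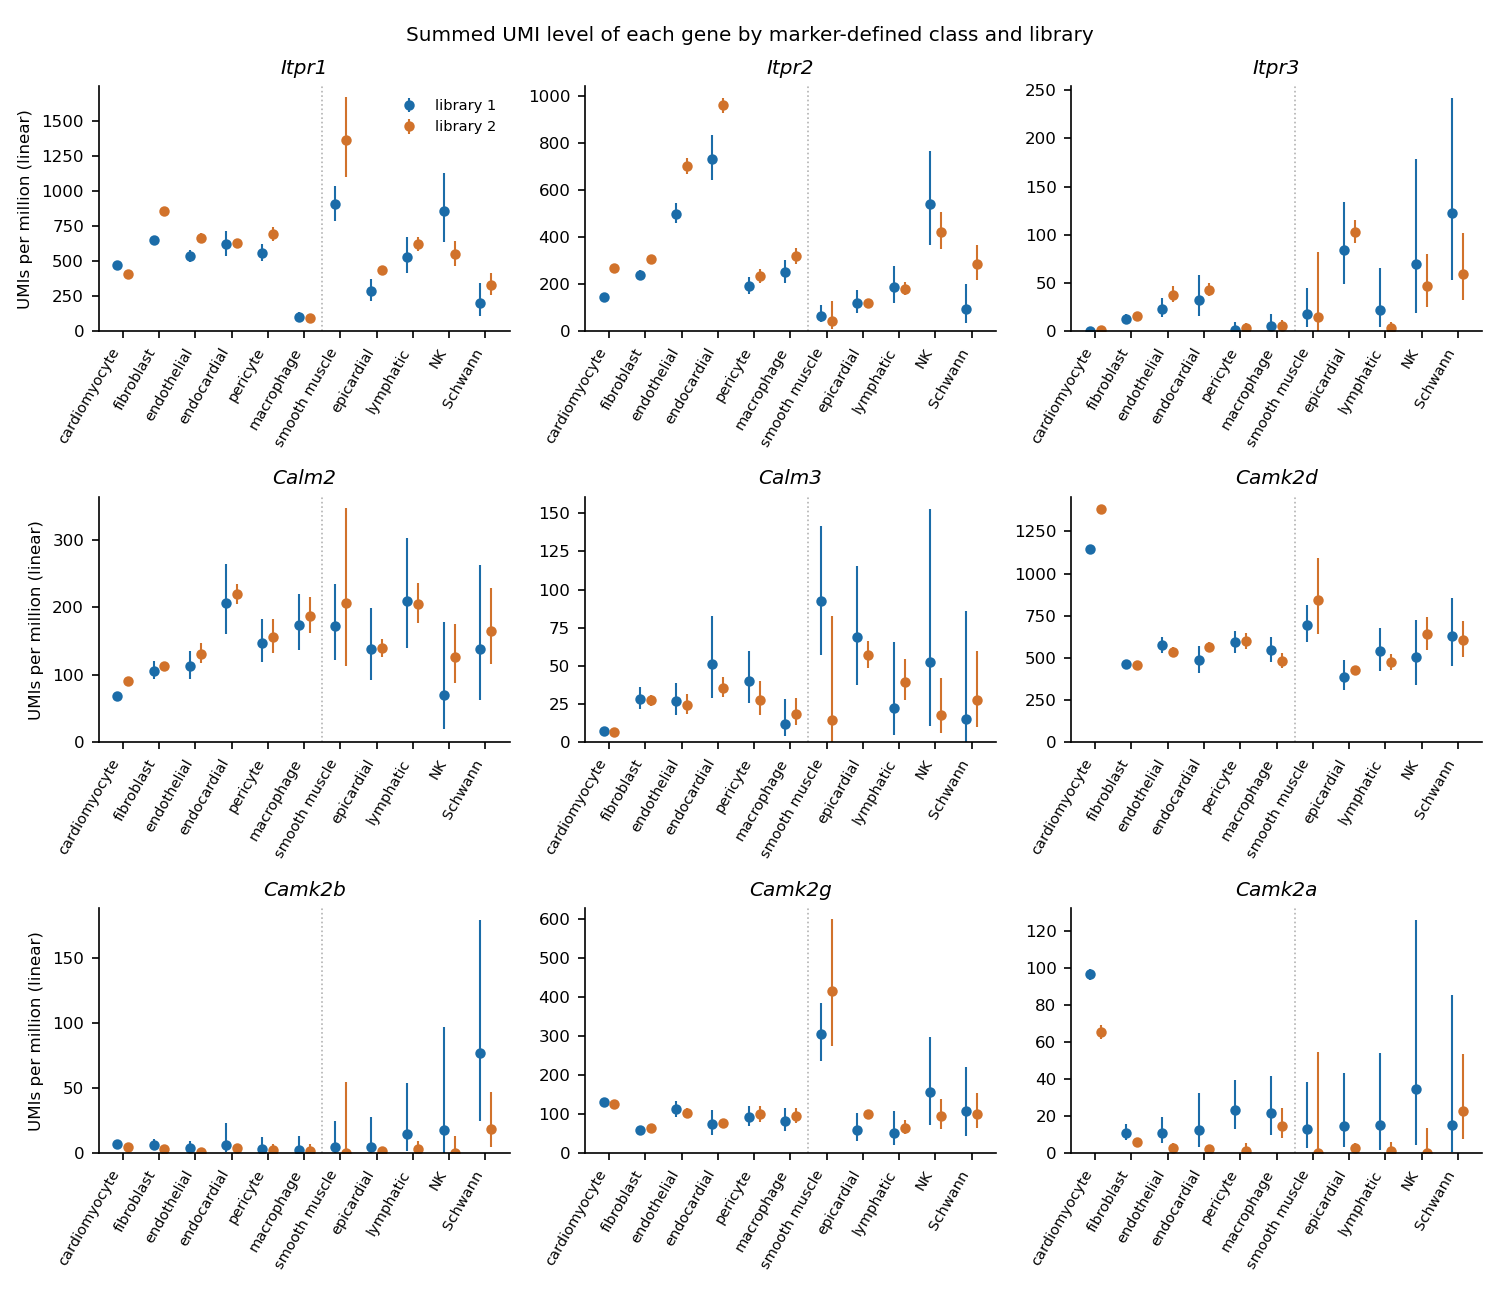
Level of each gene in CPM (vertical axis, linear, from 0) by class (horizontal axis), with 1 point per library and bars for the 95% Poisson interval, which covers counting error only. Classes right of the dotted line had under 50 cells in a library and were not tested. Camk2d and Camk2a stand highest in cardiomyocyte-like cells, Itpr2 in endocardial-like cells, and Itpr1 lies lowest in macrophage-like cells among the tested classes.

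Itpr1, the IP3 receptor best known from neurons and smooth muscle, was present at a like level in most classes and low in macrophage-like cells. In libraries 1 and 2 it stood at 470.2 and 410.1 CPM in cardiomyocyte-like cells. Fibroblast-like cells had 648 and 858 CPM, endothelial-like cells 536 and 668 CPM, endocardial-like cells 618 and 627 CPM, pericyte-like cells 559 and 692 CPM, and macrophage-like cells 99.4 and 91.0 CPM. On the CPM scale cardiomyocyte-like cells therefore stood below every tested class except macrophage-like cells, in both libraries. The fitted difference was 2.72 ± 0.21 (log2, SE, adjusted p = 1.26e-07, edgeR) against macrophage-like cells and between -0.27 and -0.02 against the other 4 classes, none of which passed the test (adjusted p between 0.201 and 0.946). The higher call against the mean of the rest (adjusted p = 0.00584) was lost without the macrophage-like class, where the difference was -0.003, with no scaling factor (0.01), with no replicate block (0.46, adjusted p = 0.0599) and with doublets kept (0.29, adjusted p = 0.264). Among the 5 other classes, 4 of 10 pairs differed, and those were the 4 pairs with macrophage-like cells. In these pairs the share of all genes called was 36.2% for fibroblast-like, 32% for endothelial-like, 32.5% for endocardial-like and 31.5% for pericyte-like against macrophage-like cells. It was 34.8% for fibroblast-like against endothelial-like, 27% against endocardial-like and 19.9% against pericyte-like cells, 16.7% for endothelial-like against endocardial-like and 25.8% against pericyte-like cells, and 24.2% for endocardial-like against pericyte-like cells.

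Itpr2, the receptor most often described in heart muscle cells, was highest, among the tested classes, in endocardial-like and endothelial-like cells, which line the chambers and blood vessels. It stood at 146 and 269 CPM in cardiomyocyte-like cells of the 2 libraries, a wider ratio between libraries than in any other tested class. Endocardial-like cells had 733 and 961 CPM, endothelial-like cells 499.7 and 701 CPM, macrophage-like cells 249.7 and 318 CPM, fibroblast-like cells 238 and 307 CPM, and pericyte-like cells 191 and 233 CPM. Endocardial-like and endothelial-like cells were each called higher than the other 4 classes. Endothelial-like cells minus endocardial-like cells gave -0.46 (log2, 95% interval -0.82 to -0.09, adjusted p = 0.0897, edgeR), which missed the threshold, as did every pair among the other 4 classes (lowest adjusted p = 0.0804, cardiomyocyte-like minus pericyte-like cells, 0.39, 0.02 to 0.77). Cardiomyocyte-like cells were lower than endocardial-like cells by -1.60 ± 0.17 and than endothelial-like cells by -1.14 ± 0.17 (log2, SE, adjusted p = 2.98e-06 and 4.95e-05, edgeR). The difference from fibroblast-like, pericyte-like and macrophage-like cells lay between -0.01 and 0.39 and did not pass the test. The lower call against the mean of the rest did not hold without the filter on low counts (-0.26, adjusted p = 0.167) or without the replicate block (-0.43, adjusted p = 0.219).

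Itpr3, the receptor of many epithelia, was nearly undetected in cardiomyocyte-like cells, with 16 UMIs in 7509 cells of library 1 (0.372 CPM, 95% Poisson interval 0.213 to 0.604) and 19 UMIs in 2232 cells of library 2 (0.998 CPM, 0.601 to 1.56). Endocardial-like cells had 31.9 and 42.8 CPM, endothelial-like cells 23.1 and 37.7 CPM, and fibroblast-like cells 12.1 and 15.3 CPM. Macrophage-like cells had 4.85 and 4.89 CPM and pericyte-like cells 1.68 and 3.04 CPM, from at most 5 UMIs in a library. Cardiomyocyte-like cells were lower than 4 of the 5 classes, by between -5.36 (endocardial-like) and -2.34 (macrophage-like) on the log2 scale, and the difference from pericyte-like cells was -1.44 (adjusted p = 0.147). Among classes too small to test, epicardial or mesothelial-like cells had 83.7 and 103 CPM, with 26.5% and 36.2% of their cells carrying an Itpr3 UMI at a median depth of 2764 and 4818 UMIs, against 0.173% and 0.806% of cardiomyocyte-like cells at 4796 and 7366.5 UMIs.

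The IP3 receptor UMIs were split differently between the genes from class to class. UMIs here are not corrected for gene length, so the shares are compared between classes and not between genes. Itpr2 made up 23.6% and 39.5% of IP3 receptor UMIs in cardiomyocyte-like cells, 70.5% and 76.8% in macrophage-like cells, 53.0% and 58.9% in endocardial-like cells, and 25.4% and 25.1% in pericyte-like cells. In smooth muscle-like cells (58 and 22 cells, not tested) Itpr1 made up 91.5% and 95.8%, at 903 and 1360.5 CPM. Itpr3 reached 17.2% and 15.6% in epicardial or mesothelial-like cells, against 0.0604% and 0.147% in cardiomyocyte-like cells.

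**Figure D2:**
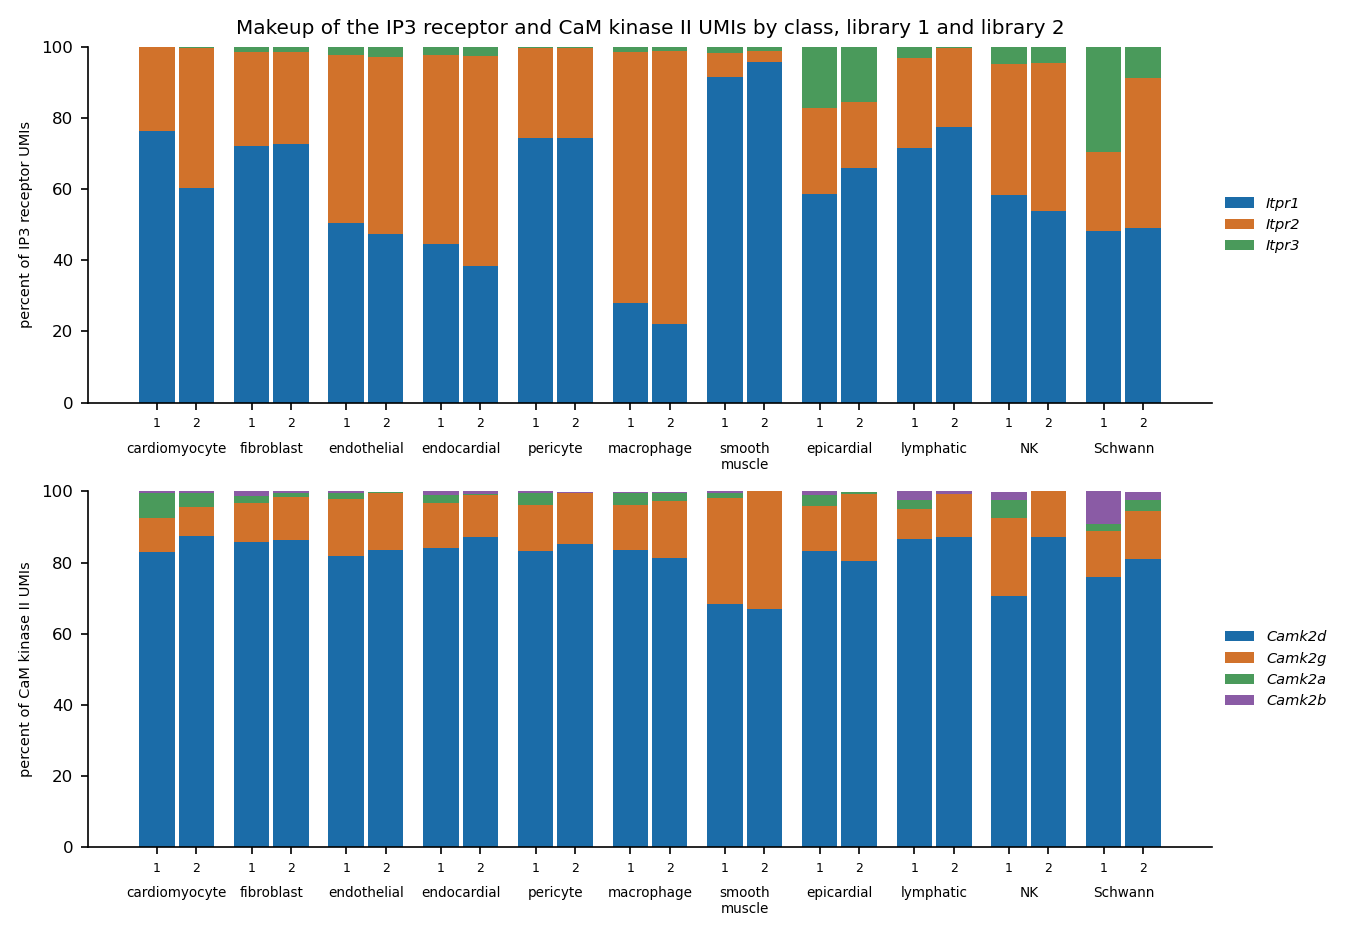
Share of each gene among the summed UMIs of the IP3 receptors (top) and of CaM kinase II (bottom) in percent (vertical axis, from 0 to 100), by class with library 1 and library 2 side by side. Itpr2 takes 70.5% and 76.8% in macrophage-like cells, and Camk2g takes 29.9% and 32.9% of the kinase UMIs in smooth muscle-like cells.

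Calmodulin is the calcium sensor that carries the signal from IP3 receptors to the kinases, and both measured members were lower in cardiomyocyte-like cells. In libraries 1 and 2 Calm2 stood at 68.5 and 90.6 CPM in cardiomyocyte-like cells. It had 207 and 219 CPM in endocardial-like cells, 175 and 187 CPM in macrophage-like cells, 148 and 156 CPM in pericyte-like cells, 114 and 131 CPM in endothelial-like cells, and 106 and 112 CPM in fibroblast-like cells. Cardiomyocyte-like cells were below every tested class in both libraries on this scale. The fitted difference passed the test against endocardial-like (-0.96), macrophage-like (-0.71) and pericyte-like cells (-0.47), and not against endothelial-like (-0.21, adjusted p = 0.229) or fibroblast-like cells (0.03, adjusted p = 0.871). The call against the mean of the rest did not hold without the filter on low counts (-0.26, adjusted p = 0.154).

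Calm3 was lower in cardiomyocyte-like cells than in each of the 5 other tested classes. It had 7.14 and 6.83 CPM in cardiomyocyte-like cells, against 51.0 and 35.7 CPM in endocardial-like cells, 40.3 and 27.4 CPM in pericyte-like cells, 28.1 and 27.3 CPM in fibroblast-like cells, 26.8 and 24.3 CPM in endothelial-like cells, and 12.1 and 18.6 CPM in macrophage-like cells. The log2 difference lay between -2.06 (endocardial-like) and -0.80 (macrophage-like, adjusted p = 0.0472, edgeR). Among the other 5 classes, 2 of 10 pairs differed, with macrophage-like cells below endocardial-like and pericyte-like cells.

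CaM kinase II is built from subunits encoded by 4 genes, and Camk2d encodes delta, the main cardiac form. In libraries 1 and 2 it stood at 1144 and 1382 CPM in cardiomyocyte-like cells. The other tested classes lay between 457 and 598 CPM, so the groups did not overlap. The log2 difference was 1.95 ± 0.17 against fibroblast-like cells, 1.78 ± 0.17 against macrophage-like cells, 1.72 ± 0.17 against endocardial-like cells, 1.61 ± 0.17 against endothelial-like cells and 1.55 ± 0.17 against pericyte-like cells (SE, edgeR, highest adjusted p = 5.39e-06). Against fibroblast-like cells 60.4% of all genes were called (28.3% higher, 32.1% lower), against endothelial-like cells 59.6% (28.3% and 31.3%), against endocardial-like cells 56.9% (26.6% and 30.3%), against pericyte-like cells 48.5% (24.7% and 23.7%) and against macrophage-like cells 54.5% (26.6% and 27.8%). Of 10 pairs among the other 5 classes, none was called for Camk2d (lowest adjusted p = 0.126). The cells differed in depth, with a median of 4796 and 7366.5 UMIs in cardiomyocyte-like cells against 1837 and 3094 in fibroblast-like cells, and at 1000 UMIs per cell 65.3% and 73.2% of cardiomyocyte-like cells had a Camk2d UMI, against 36.8% and 34.9% of fibroblast-like cells. Unthinned, those shares were 96.2% and 99.3% against 56.7% and 68.2%. This thinning left out 13 and 1 cardiomyocyte-like cells and 83 and 36 fibroblast-like cells.

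Camk2a, the alpha form best known from neurons, had the widest gap of the kinase genes. In libraries 1 and 2 it stood at 96.6 and 65.4 CPM in cardiomyocyte-like cells. In library 1 the other tested classes had between 10.8 CPM (fibroblast-like) and 23.5 CPM (pericyte-like), and in library 2 between 1.01 CPM (pericyte-like) and 14.7 CPM (macrophage-like). The log2 difference was highest against endocardial-like cells (4.64 ± 0.48) and lowest against macrophage-like cells (2.61 ± 0.42; SE, adjusted p = 2.27e-06 and 1.34e-04, edgeR). Set beside the spread of cardiomyocyte markers, the Camk2a level of the other tested classes was 11.2% to 24.3% of the cardiomyocyte-like level in library 1, where those markers stood at 14.5% to 18.6%. In library 2 it was 1.55% to 8.83% outside macrophage-like cells, where the markers stood at 3.25% to 6.10%, and 22.4% in macrophage-like cells, whose markers stood at 4.40%. The part of free RNA in these low levels was not tested.

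Camk2g, the gamma form, was higher in cardiomyocyte-like cells than in each of the 5 tested classes. It had 129.6 and 127 CPM in cardiomyocyte-like cells, against 112 and 102 CPM in endothelial-like cells, 92.4 and 99.5 CPM in pericyte-like cells, 82.4 and 93.9 CPM in macrophage-like cells, 73.3 and 76.9 CPM in endocardial-like cells, and 58.4 and 63.6 CPM in fibroblast-like cells. The log2 difference was 0.69 ± 0.14 against endothelial-like cells and 1.56 ± 0.14 against fibroblast-like cells (SE, adjusted p = 8.19e-04 and 4.78e-07, edgeR). In CPM, endothelial-like cells had 86.2% and 80.5% of the cardiomyocyte-like level. The fitted differences include the TMM scaling and the CPM do not. The TMM factors were 0.776 and 0.752 in cardiomyocyte-like sums and 1.05 and 0.995 in endothelial-like sums. Smooth muscle-like cells, too few to test, had more on the CPM scale than cardiomyocyte-like cells in both libraries, with 304 CPM (95% Poisson interval 237 to 385) and 414 CPM (275 to 598).

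Camk2b, the beta form, was scarce throughout. Cardiomyocyte-like cells had 6.86 and 4.99 CPM from 295 and 95 UMIs, and no other tested class had over 24 UMIs in a library. Endocardial-like cells had 6.38 and 3.79 CPM, fibroblast-like cells 6.49 and 2.82 CPM, pericyte-like cells 3.36 and 2.03 CPM, endothelial-like cells 3.69 and 0.838 CPM, and macrophage-like cells 2.42 and 1.96 CPM. Within a library cardiomyocyte-like cells had the highest level of the tested classes, but in library 1 the counting intervals of all 5 others reached theirs. The fitted difference passed the test against 4 classes and not against endocardial-like cells (0.68 ± 0.41, SE, adjusted p = 0.178, edgeR). It includes the TMM scaling, which the CPM do not. Against fibroblast-like cells the fitted difference was 0.97, where their CPM was 94.6% and 56.6% of the cardiomyocyte-like level in libraries 1 and 2.

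**Figure D3:**
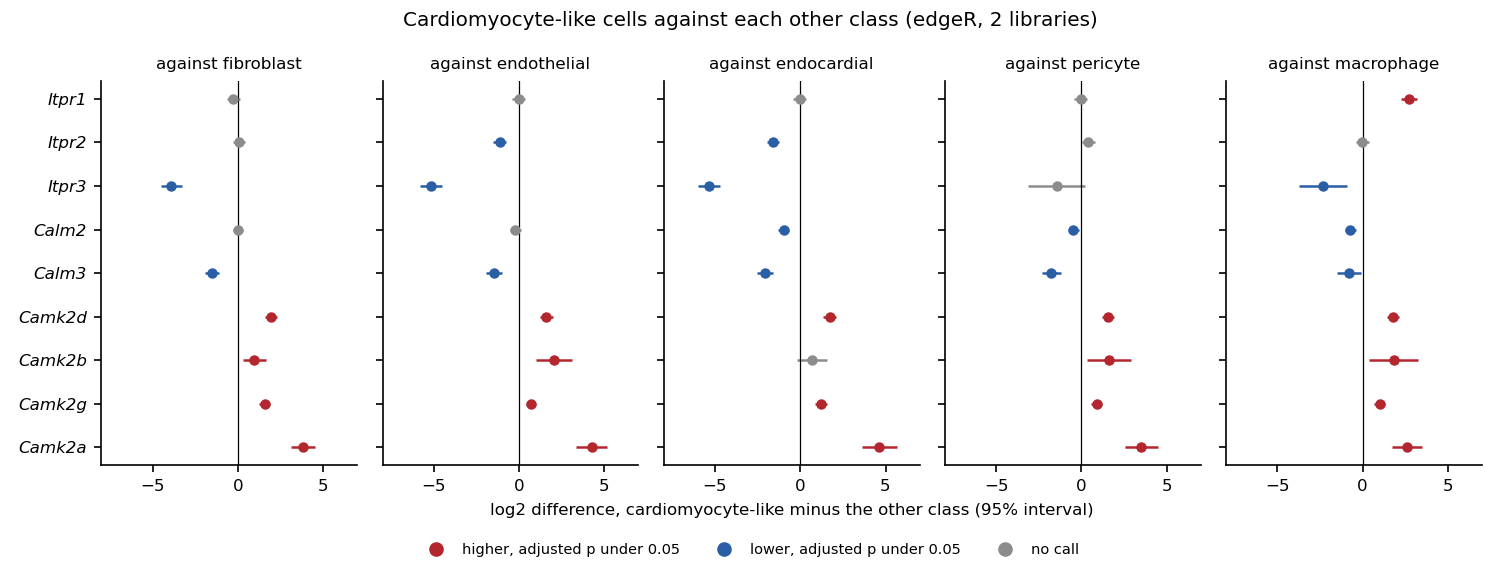
Fitted log2 difference (horizontal axis) of each gene in cardiomyocyte-like cells minus each of 5 other classes, with 95% intervals from the edgeR fit over both libraries. Red points were called higher, blue points lower and grey points not called. The 4 kinase genes lie right of 0 in every panel, Calm3 lies left of 0 in every panel, and Itpr1 leaves 0 only against macrophage-like cells.

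Set against the rest in turn, the other classes differed in fewer members. The rest included the cardiomyocyte-like cells each time. Endocardial-like cells were higher in 5 members and lower in 2 of 9, where 27.7% of all genes were called (16.9% higher, 10.8% lower). They were higher in Itpr3 (2.79), Itpr2 (1.46), Calm3 (0.96), Calm2 (0.69) and Itpr1 (0.50), and lower in Camk2a (-1.80) and Camk2g (-0.39), all as log2 differences. Endothelial-like cells were higher in Itpr3 (2.54), Itpr2 (0.91) and Itpr1 (0.50) and lower in none, where 30.3% of genes were called (18.7% higher, 11.5% lower). Fibroblast-like cells were higher in Itpr3 (1.04) and Itpr1 (0.80) and lower in Camk2g (-0.80), Camk2d (-0.62), Itpr2 (-0.53) and Calm2 (-0.50), where 34.6% of genes were called (19.5% higher, 15.1% lower). By pairs, their Itpr3 was called lower than in endothelial-like (-1.25) and endocardial-like cells (-1.46). It was called higher than in pericyte-like (2.46) and macrophage-like cells (1.56), and also higher than in cardiomyocyte-like cells. Pericyte-like cells were higher in Itpr1 (0.51) and lower in Itpr3 (-1.91) and Itpr2 (-0.93), where 22.5% of genes were called (12.3% higher, 10.3% lower). Macrophage-like cells were higher in Calm2 (0.39) and lower in Itpr1 (-2.79), Itpr2 (-0.45) and Camk2d (-0.41), where 36.6% of genes were called (20.3% higher, 16.3% lower). For Camk2d no pair of classes without cardiomyocyte-like cells was called (lowest adjusted p = 0.126, edgeR), so its lower calls here rest on the cardiomyocyte-like level. For Itpr2 no pair among cardiomyocyte-like, fibroblast-like, pericyte-like and macrophage-like cells was called. The lower calls of Itpr2 here therefore rest on the endocardial-like and endothelial-like levels. Without the macrophage-like class the Itpr1 calls of the fibroblast-like (0.21), endothelial-like (-0.12), endocardial-like (-0.10) and pericyte-like cells (0.01) were all lost. With doublets kept, the Camk2a difference of endocardial-like cells was 0.10 and not called. With no replicate block, 10 of these 23 calls passed the test.

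The genes whose level was most like that of a member over the 12 class sums were named by the Pearson correlation of log2(CPM + 1). These sums share libraries and differ in depth, so the values are descriptions. Itpr2 went with Emcn (r = 0.96), a glycoprotein of the endothelial surface, Vwf (0.96), the clotting factor stored in endothelial cells, and Megf9 (0.96). Emcn is on the endothelial marker list used to name the classes, so its level over these sums is not independent of that naming. Itpr1 went with Rbfox2 (0.98), a splicing factor, Grb10 (0.97) and Klf12 (0.97), and Itpr3 with Cd9 (0.98) and Grasp (0.97). Camk2d went with the mitochondrial genes Chchd3 (0.96) and Cox10 (0.96) and with Lrrfip1 (0.96), Camk2a with Sdsl (0.98), Mlxipl (0.97) and Ank1 (0.97), and Camk2g with Slc20a1 (0.92), Arhgap26 (0.90) and Qk (0.86). Calm2 went with Pon2 (0.95), Wdr45b (0.95) and Batf (0.93), Calm3 with Nynrin (0.97) and Tsn (0.95), and Camk2b with Dlx1as (0.94), Mettl20 (0.94) and Lynx1 (0.90). Between members, Itpr2 and Itpr3 were closest (r = 0.89), and Calm3 and Camk2d ran most strongly against each other (r = -0.78).

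The rest of the route was read from a list of 140 genes in 11 roles, of which 116 could be tested. In cardiomyocyte-like cells against the other classes 44 of the 116 were higher and 49 lower, with a median log2 difference of -0.18. Over all genes tested 32.3% were higher and 33.9% lower, with a median of -0.06, and the counts by role below are to be read against those shares. Of the 44 higher genes, 11 did not have a higher CPM in cardiomyocyte-like cells than the mean CPM of the other classes in both libraries, whereas all 49 lower genes had a lower one in both. These measures are unlike. The log2 difference averages the other classes on the log scale after TMM scaling, and the mean CPM averages their levels without that scaling.

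Upstream of IP3, 7 of 16 Gq-coupled receptors tested were higher and 6 lower. The alpha-1 adrenergic receptors Adra1a (188.7 and 168.8 CPM in cardiomyocyte-like cells, against means of 34.3 and 13.5 CPM in the other classes, log2 difference 4.03) and Adra1b (196 and 142 CPM against 31.7 and 6.17 CPM, 4.14) were higher. Ednrb, an endothelin receptor (0.768 and 3.89 CPM against 88.2 and 166 CPM, -4.21), Chrm3, a muscarinic receptor (-3.91), and P2ry6, a nucleotide receptor (-3.83), were lower. Adra1d was also called higher (4.21), at 1.35 and 0.893 CPM in cardiomyocyte-like cells against mean levels of 2.69 and 1.42 CPM, so the CPM went the other way. Among Gq proteins and phospholipases C, 3 of 14 tested were higher and 9 lower: Plcd3 (1.87) and Plcd1 (1.21) were higher, and Gna14, a Gq-family subunit (-2.40), Plcb3 (-1.53), Plcl1, a phospholipase C-like protein without that activity (-1.31), Plcb1 (-0.56) and Plcb4 (-0.36) were lower. Plce1 was called higher (1.04) at 215 and 211 CPM against means of 272 and 285 CPM, again with the CPM the other way. Plcb2 was not called (1.16, adjusted p = 0.0626).

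Among genes of IP3 turnover, which act on IP3 or on the inositol phosphates made from it, 2 of 8 tested were higher and 2 lower. Itpkb, which phosphorylates IP3, stood at 17.4 and 22.6 CPM in cardiomyocyte-like cells against means of 294 and 357 CPM in the other classes (log2 difference -3.06 ± 0.14, SE, adjusted p = 1.62e-09, edgeR). Inpp1, an inositol phosphatase, was lower too (-1.08), and Impa2, which dephosphorylates inositol monophosphate (1.46), and Inpp5a, which dephosphorylates IP3 (0.73), were higher. Of the partners of IP3 receptors, 8 of 17 tested were higher and 6 lower. Ank2, an anchoring protein (2.93), and Vdac1, a channel of the outer mitochondrial membrane (1.33), were higher, and Mrvi1, a substrate of cGMP-dependent kinase that binds IP3 receptors in smooth muscle (-3.94), Itpripl1 (-4.79) and Itpripl2 (-4.17) were lower. Of 10 store-operated entry genes 2 were higher and 6 lower: the calcium sensors Stim1 (10.5 and 13.3 CPM against 230.2 and 276 CPM, -3.85) and Stim2 (-2.53) and the channel subunit Orai2 (-3.84) were lower, and the channel Trpc1 (1.62) and Saraf, a brake on this entry (0.52), were higher. The CPM of Saraf was 81.3 and 69.6 in cardiomyocyte-like cells against means of 86.1 and 61.8, so it did not go the same way in both libraries.

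Downstream of calcium, Camk2n1, an inhibitor of CaM kinase II, was lower (7.86 and 7.14 CPM against 36.7 and 28.4 CPM, log2 difference -1.15 ± 0.25, SE, adjusted p = 9.67e-04, edgeR), and Camk2n2 had too few counts to test. Other calmodulin-dependent kinases were called higher in 4 and lower in 6 of 13. Mylk3, the myosin light chain kinase of heart muscle (592 and 601 CPM against 75.0 and 25.7 CPM, 4.39), Mylk4 (3.96) and Phkg1, the catalytic subunit of muscle phosphorylase kinase (3.405), were higher. Camk4 (-3.4005), Mylk (-3.14), Camkk1 (-2.87) and Camk1d (-1.69) were lower. Of calcineurin and its regulators, 6 of 10 were higher and 3 lower, with the regulators Rcan2 (1979 and 1924 CPM against 306 and 137 CPM, 4.15), Myoz2, a calcineurin-binding Z-disc protein (3.66), and Rcan1 (1.21) higher, and the catalytic subunit Ppp3ca (-1.18), its calcium-binding subunit Ppp3r1 (-0.52) and Rcan3 (-0.41) lower. Among the genes listed beside calmodulin, Pcp4l1 (2.89) and Strn (0.92) were higher and Nrgn (-3.41), Marcks (-3.399) and Marcksl1 (-2.98) lower. Pde1c, a phosphodiesterase that calmodulin switches on, was higher (3.82), while Pde1a (-3.82), Pde1b (-3.35) and Nos3, the nitric oxide synthase of endothelium (-3.21), were lower. Of the transcription factors and deacetylases downstream, 9 of 14 tested were higher, among them Hdac9 (2.30), Nfatc2 (2.22) and Camta1 (1.70), and 2 were lower, Nfatc4 (-3.42) and Nfatc1 (-0.91). Nfatc1 is on the endocardial marker list used to name the classes, so its lower call is not independent of that naming. Mylk is on the smooth muscle list, whose class was not among those tested.

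Within the cardiomyocyte-like cells, clusters were formed without the member genes as features and are described here with no test. A cluster led by Mybphl, Sln and Nppa, with 6 atrial markers among its 10 leading genes, held 87 cells in library 1 and 7 in library 2. In library 1 it had 81.4 CPM of Calm3 (95% Poisson interval 57.0 to 113, from 36 UMIs), against 6.37 CPM (5.63 to 7.17) in the other cardiomyocyte-like clusters, and in library 2 it had no Calm3 UMI, which at this depth allows up to 79.1 CPM by the limit of 3 counts and 97.3 CPM by the 95% Poisson interval. Its Itpr1 level was 239.7 CPM (196 to 290.0) against 473 CPM (466 to 479) in library 1, its Camk2a level 45.2 CPM (27.6 to 69.9) against 97.2 CPM (94.2 to 100.2), and its Itpr2 level 131 CPM (99.6 to 169.6) against 146 CPM (142 to 149). Its Camk2d level was 839 CPM (756 to 929) against 1148 CPM (1137 to 1158), and its Itpr3 level 9.05 CPM (2.47 to 23.2, from 4 UMIs) against 0.282 CPM (0.146 to 0.493). All 4 of these Itpr3 UMIs came from 1 cell, so that interval understates the uncertainty. These intervals cover counting error in 1 library and are no test of a difference between kinds of cells. In library 2, with 7 cells, Itpr1 stood at 501 CPM (302 to 782) against 409.9 CPM and Camk2a at 79.1 CPM (16.3 to 231, from 3 UMIs) against 65.3 CPM, both in the opposite direction to library 1. Camk2d stood there at 1187 CPM (866 to 1588) against 1383 CPM, and no Itpr3 UMI was seen. Leaving this cluster out changed none of the member calls of cardiomyocyte-like cells.

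The other clusters differed by gene and library. Cluster 4 (1532 and 55 cells) had the highest Itpr1 level in both libraries, 558 CPM (544 to 572) in library 1 and 678 CPM (609 to 753) in library 2, where the remaining large clusters lay between 401 and 476 CPM. Itpr2 lay between 137 and 149.8 CPM in the 4 large clusters of library 1. In library 2 it had 248 CPM in the main cluster (1988 cells), 474 CPM in cluster 4 (55 cells) and 509 CPM in cluster 5 (97 cells). Camk2a lay between 84.1 and 114 CPM in the large clusters of library 1 and between 63.3 and 89.2 CPM in those of library 2.

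**Figure D4:**
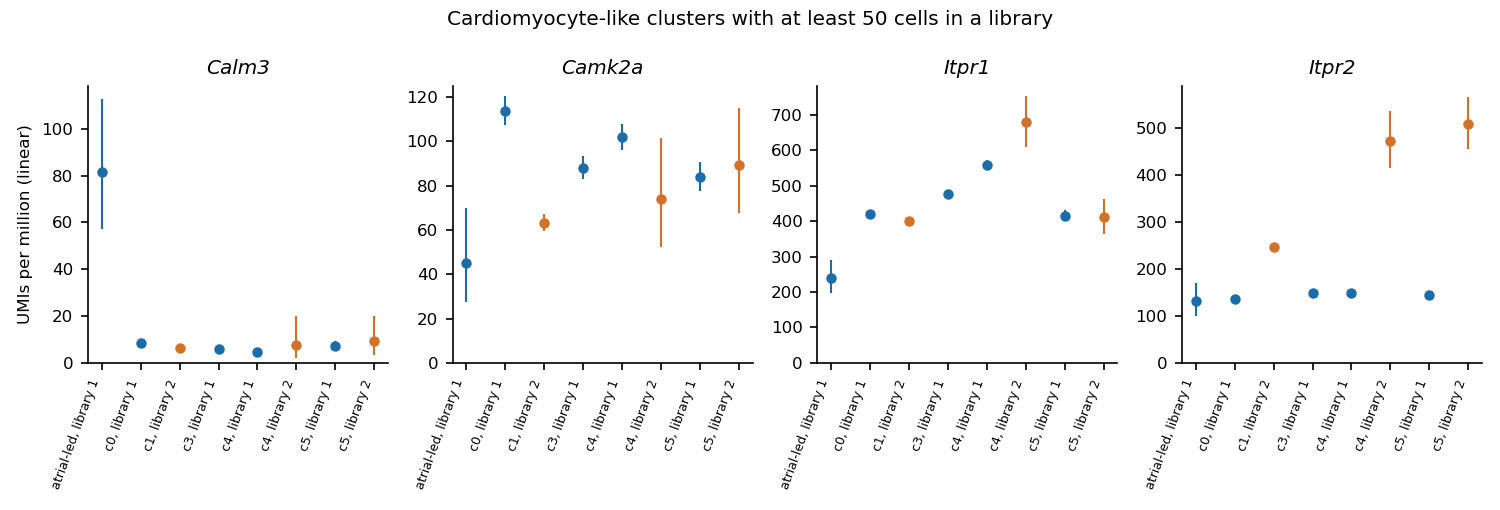
Level in CPM (vertical axis, linear, from 0) of Calm3, Camk2a, Itpr1 and Itpr2 in each cardiomyocyte-like cluster with at least 50 cells in a library (c and the cluster number on the horizontal axis), blue for library 1 and orange for library 2, with 95% Poisson intervals. Calm3 stands at 81.4 in the atrial-led cluster and between 4.83 and 9.23 in the others, and Itpr2 is highest in the 2 smaller clusters of library 2.

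A GFP transcript was counted as its own feature. The labels do not say where it comes from, so a GFP UMI is used here only to sort cells and not as a sign of virus or deletion. Among cardiomyocyte-like cells 1347 of 7509 (17.9%) in library 1 and 514 of 2232 (23.0%) in library 2 had at least 1 GFP UMI, against 0.707% and 0.567% of fibroblast-like cells, whose median depth was lower (1837 and 3094 UMIs against 4796 and 7366.5). Each such cell was paired with a cell without a GFP UMI of nearly the same depth in its library, giving median depths of 6634 and 6635 UMIs in library 1 and 9825 and 9807 UMIs in library 2, with and without a GFP UMI. A cell without a GFP UMI may still hold the transcript below detection.

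None of the 8 members tested was called between these groups (edgeR quasi-likelihood test, 4 sums, 1 residual degree of freedom). With 12830 degrees of freedom per test, the p-values rest on the spread shared over genes and not on a gene's own variation. In this comparison 347 of 12830 genes, or 2.7%, were called (0.709% of genes higher, 2% lower) and 1582 had an unadjusted p under 0.05. At an unadjusted p under 0.05 stood 2 members, both calmodulin genes. Calm2 had 65.4 and 79.98 CPM in cells with a GFP UMI of libraries 1 and 2, against 70.9 and 93.5 CPM in cells without, a log2 difference of -0.20 (95% interval -0.36 to -0.04, adjusted p = 0.229). Calm3 had 6.34 and 4.23 CPM with a GFP UMI against 8.22 and 6.54 CPM without, a log2 difference of -0.48 (-0.92 to -0.03, adjusted p = 0.349). Within libraries 1 and 2 the log2 difference was -0.12 and -0.29 for Calm2 and -0.38 and -0.69 for Calm3.

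The intervals of the tested receptors and kinases all held 0 and were widest for the scarce Camk2b. Their widths, like those of Calm2 and Calm3, rest on the spread shared over genes, as the p-values do. Within libraries 1 and 2 the log2 difference was -0.01 and -0.21 for Itpr2 and 0.03 and -0.28 for Camk2a. Itpr1 had 496 and 393 CPM with a GFP UMI and 483 and 417 CPM without (log2 difference -0.05, 95% interval -0.18 to 0.08), and its direction differed between the libraries (0.03 and -0.14). Itpr2 had 153 and 260.2 CPM with a GFP UMI and 153 and 289.5 CPM without (-0.11, -0.24 to 0.02). Camk2d had 1162 and 1390.4 CPM with and 1177 and 1377 CPM without a GFP UMI (-0.03, -0.16 to 0.10). Camk2g had 128 and 125 CPM with and 127 and 128 CPM without (-0.04, -0.18 to 0.10), and Camk2a 97.2 and 56.9 CPM with and 95.01 and 66.5 CPM without (-0.09, -0.25 to 0.07). Camk2b had 7.48 and 3.17 CPM with a GFP UMI and 5.80 and 5.09 CPM without, with opposite directions in the libraries and an interval from -0.43 to 0.53. Itpr3 had 0 and 4 UMIs with a GFP UMI and 10 and 5 UMIs without, too few to test, and the 0 UMIs in library 1 allow up to 0.284 CPM.

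**Figure D5:**
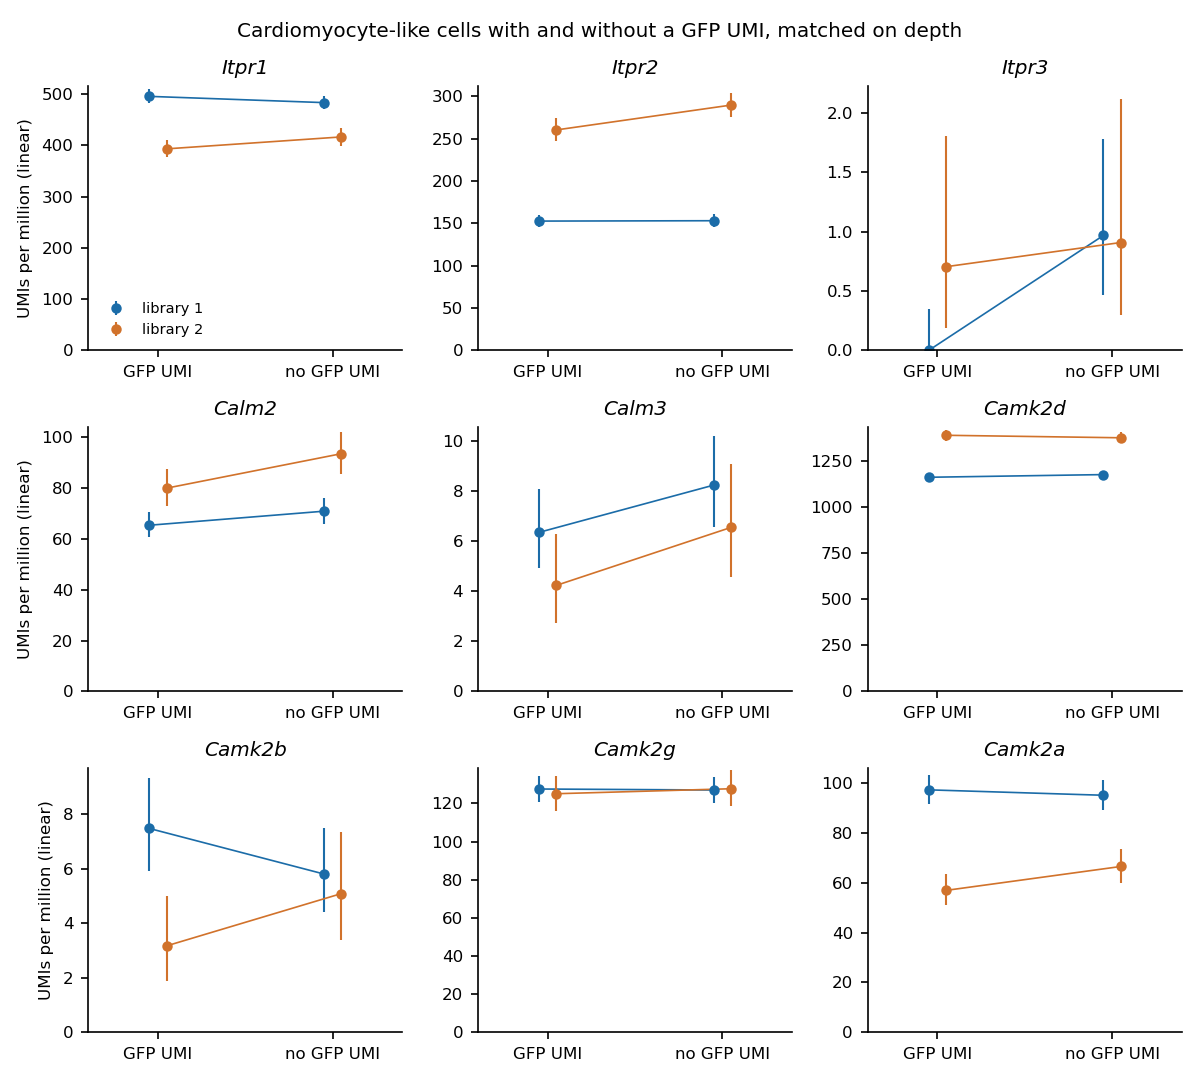
Level of each gene in CPM (vertical axis, linear, from 0) in cardiomyocyte-like cells with a GFP UMI (left) and depth-matched cells without (right), with a line joining the 2 values of a library and 95% Poisson intervals. The points of Calm2 and Calm3 lie lower on the left in both libraries, though neither gene was called, and those of Camk2d and Camk2g lie nearly level.

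In the same fit 105 genes of the 140-gene list could be tested, and 1 was higher and 8 lower in cells with a GFP UMI, with a median log2 difference of -0.04 (all genes -0.0004). The lower genes were the adrenergic receptors Adra1a (-0.40) and Adra1b (-0.31), Phkg1 (-0.39), the death-associated kinase Dapk1 (-0.33), Plcb1 (-0.32), Hdac9 (-0.30), Nfatc2 (-0.30) and Camta1 (-0.27), and Ahcyl2, a relative of an IP3 receptor-binding protein, was higher (0.30). Ahcyl2 and Dapk1 are named here because they were called. Summed cardiomyocyte markers stood at 65691 and 74717 CPM with a GFP UMI and at 62997 and 74840.4 CPM without. Summed endothelial markers stood at 47.1 and 66.2 CPM with a GFP UMI and 64.5 and 71.7 CPM without, endocardial markers at 58.0 and 78.8 CPM with and 65.0 and 101 CPM without, and pericyte markers at 436 and 403 CPM with and 378 and 355 CPM without. Fibroblast markers stood at 69.5 and 167 CPM with and 93.7 and 161 CPM without, and macrophage markers at 18.1 and 22.2 CPM with and 17.6 and 19.4 CPM without. The part of these markers in the calmodulin values was not tested. With no replicate block no gene at all was called in this comparison, and with DESeq2 25 genes were called.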

How the data were processed

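The members and the gene lists were chosen with earlier results of these data known. The deposited matrix holds whole UMI counts, not normalized, and per the file headers Cell Ranger wrote it. GRCm38 (mm10), edgeR, Seurat, Cell Ranger, Trimmomatic and fastp appear in the submitters' processing notes, with no roles. Barcodes ending in 1 and 2 were taken as the samples titled 1 and 2.

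Cells needed 500 UMIs, 200 genes and at most 25% mitochondrial counts, which 22137 of 22183 barcodes passed. Doublets were scored from simulated ones at an assumed rate of 8% (749 and 603 barcodes marked, 54.5% and 55.8% of simulated doublets over the threshold), and 1807 cells were removed, clusters of mostly marked cells included, so doublets may remain among the 20330 kept. Leiden clusters (leidenalg 0.10.2, resolution 1, 30 components, 15 neighbours) were made without the 149 features of the members, the list and GFP, and named from marker lists by a scoring rule set after seeing the data. Unnamed clusters held 12.9% and 1.75% of kept cells. Names can therefore differ from the study's own.

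Sums per library and class were tested in edgeR 4.0.16 (TMM, filterByExpr, library block, 5 residual degrees of freedom) in R 4.3.3, with DESeq2 1.42.0 as an alternative. The replicate block pairs the sums, because each library's cells shared 1 suspension. Of the pathway list, up to 3 higher and 3 lower genes per role were named by size, with Camk2n1, Camk2n2, Itpkb, Ppp3ca, Camk4, Camk1d and Plcb1 to Plcb4 always, and the 3 most correlated genes per member. Some genes that this rule names are not reported here. On simulated counts 88% of changes of log2 size 1 and 97% of those of log2 size 2 were recovered for cardiomyocyte-like cells. There were 4 false calls over 12419 genes. For GFP status the shares were 67% and 94%, with 10 false calls over 12604 genes. Whether these rates hold for the measured counts was not tested. Poisson intervals, at 95%, cover counting error only.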

Additional observations from a re-analysis of the deposited data

How the results depend on the processing

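Counts of members, of list genes and of all genes called in cardiomyocyte-like cells stayed within 1.5 times of their value under every alternative run, including the one added after seeing the data, without the macrophage-like class. For all genes this holds for both directions together and not for each direction. With no scaling factor 2656 genes were called higher and 6786 lower, against 4273 and 4492 with it. Members called over the other classes fell to 10 with no replicate block, against 23 with it. Genes called by GFP status numbered 347, against 25 with DESeq2, 0 with no replicate block, 582 against all cells without a GFP UMI and 168 with at least 2 GFP UMIs. Of the single-gene values, 698 kept direction and side of the threshold, 39 lost a call, 9 gained one, 20 moved and 23 changed sign.

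The sign changes were these. Without the macrophage-like class, Itpr1 stood at -0.0030, -0.12 and -0.10 in cardiomyocyte-like, endothelial-like and endocardial-like cells. With doublets kept, Camk2d and Camk2a stood at 0.0054 and 0.19 in endothelial-like cells, Camk2a at 0.10 in endocardial-like cells, and Camk2b and Camk2a at 0.0035 and -0.42 in macrophage-like cells. With no filter Camk2g stood at -0.020 in pericyte-like cells. By library, Camk2a ranged from -3.02 to 0.16 in pericyte-like cells and from -0.024 to 1.47 in macrophage-like cells. By GFP status, the range over the libraries was -0.14 to 0.030 for Itpr1, -0.74 to 0.36 for Camk2b, -0.090 to 0.00041 for Camk2g and -0.28 to 0.027 for Camk2a. Against all cells without a GFP UMI, Itpr1, Itpr2, Camk2d and Camk2b stood at 0.032, 0.032, 0.040 and -0.084. Camk2b stood at -0.14 with DESeq2, -0.026 with no replicate block and -0.55 with at least 2 GFP UMIs, where Camk2g stood at 0.0050. The cause of these changes was not tested. Of these results Itpr1 by class and Camk2a in endocardial-like cells had been called.

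The atrial-led cluster was not tested, with 87 and 7 cells. With 2 libraries, leaving out either leaves no residual degrees of freedom, so those values carry no test.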
